A study of Arabidopsis thaliana with 9 samples.

Results

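Transcript levels were compared in cultured Arabidopsis thaliana cells after 30 min of high light at 1800 microE/m2/s and after 1 h of darkness, with 3 arrays per group. The members are the 6 arrays of these groups out of 9 in the series. The other 3 are control arrays of cells left at 50 microE/m2/s, the continuous light in which the culture was grown, and they serve here as a reference level and share the estimate of the spread. All groups came from the same kind of cell suspension culture, treated on the ninth day of growth in a glass vessel inside a water bath held at constant temperature. No genotype, ecotype or mutation is named in the labels. The treatments differ in length as well as in light, so light level and duration cannot be told apart. The labels call the replicates biological without saying that each had its own culture, so the p-values below cover the spread among these arrays, which may be partly technical.

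Light reaches plant cells both as energy and as information. Photosynthesis feeds sugars to the cell, photoreceptors adjust gene expression to light, and excess light loads the chloroplast with more excitation than carbon fixation can use. The surplus produces reactive oxygen species, to which the nucleus responds within minutes through calcium signals, protein kinases and transcription factors. Darkness stops photosynthesis, and prolonged darkness switches on genes of starvation, autophagy and amino acid breakdown.

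RNA was measured on Affymetrix ATH1 arrays, on which each transcript is read by a set of short probes, and all levels below are log2 signals per probe set. A difference is the high light level minus the dark level, so 1 unit is a doubling, and it was fitted with limma with the replicate number as a block. A probe set was called at a limma adjusted p under 0.05 over all 22746 probe sets. Exactly 1 gene is known for 13513 of these and several genes for 503. The other 8730 are unnamed here. Array medians were nearly equal (5.55 to 5.67). On the first principal component, with 47.4% of the variance, dark arrays 1 to 3 scored -28.5, -23.2 and -0.8 and high light arrays 1 to 3 scored 4.3, 41.5 and 45.4, so high light array 1 lay nearer to the dark arrays than the other two. RNA quality was followed by the log2 signal at the 3 prime end minus that at the 5 prime end of actin, GAPDH and ubiquitin transcripts, whose mean was 1.02 ± 0.25 on the dark arrays and 1.00 ± 0.05 on the high light arrays (SD, n = 3), and its part in the results was tested only as a covariate. Of the markers for the labelled cell type, none of 8 listed markers of dividing cells had a named probe set, so that check was not possible here. Markers of root hairs, guard cells and pollen, of which 6 were measured, lay between 3.60 and 4.53 on the 6 arrays, close to the lower quartiles of the arrays (4.05 to 4.12).

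High light and darkness differed mainly by transcripts that were higher in high light. Of the 22746 probe sets, 430 were called (1.89%), 402 of them higher in high light (1.77%) and 28 lower (0.123%). The called higher sets had a median difference of 1.46, and 300 of them differed by at least 1, 129 by at least 2 and 13 by at least 4. The called lower sets had a median of -0.52, and 5 of them differed by at least 1 and 0 by at least 2. The median of all tested sets was -0.04. Before adjustment, 3062 of the 22746 sets had a p under 0.05 in either direction, the reference for unadjusted counts below. Without the block, 204 were called, 201 higher and 3 lower, and all 204 were among the 430. Leaving out high light array 2 or 3 left 164 and 157 called, leaving out dark array 2 or 3 left 227 and 262, and leaving out high light array 1 gave 862, of which 240 were lower.

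**Figure D1:**
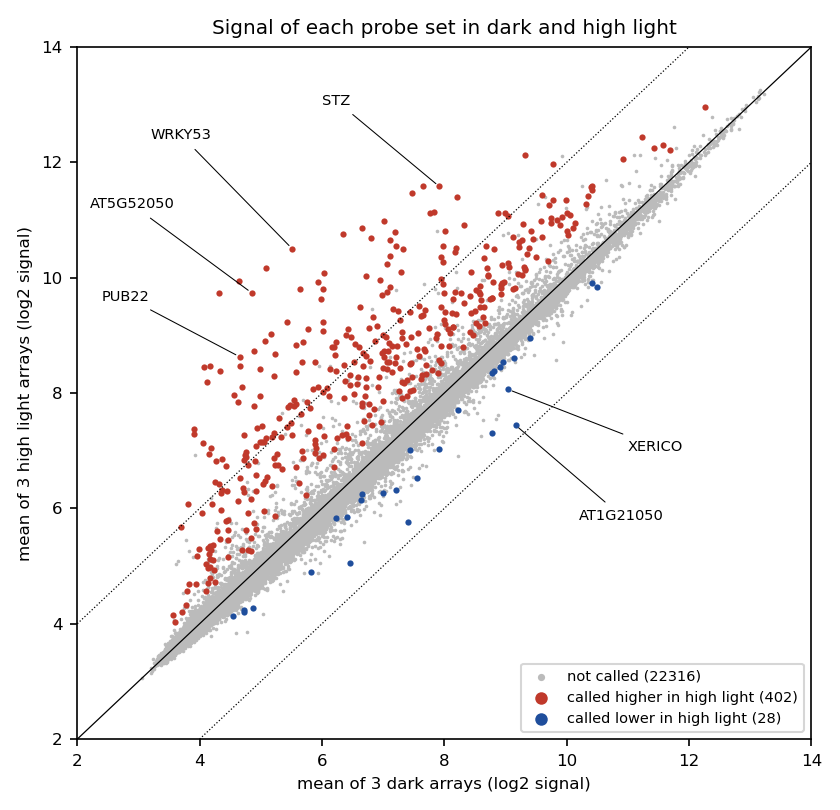
Mean log2 signal of each of the 22746 probe sets in the 3 dark arrays (x axis) and the 3 high light arrays (y axis). Red points are the 402 sets called higher in high light, blue points the 28 called lower and grey points the 22316 not called; the solid line marks equal signal and the dotted lines a log2 difference of 2 in either direction, and red points spread far above the diagonal while blue points stay close below it.

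The arrays of both groups did not overlap for 379 of the 402 sets called higher and for 16 of the 28 called lower. Over all tested sets, non-overlap was as frequent in one direction as in the other, with 1134 sets higher (4.99%) and 1201 lower (5.28%). All 3 numbered pairs of arrays had the sign of the call in each of the 430 sets. The calls were made on these same arrays, so this agreement and the non-overlap are not separate support for them. The pairs differed in size, with medians of 1.04, 1.79 and 1.57 over the sets called higher for pairs 1, 2 and 3. Pair 1 was the smallest of the 3 in 312 of the 402 sets (77.6%).

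**Figure D2:**
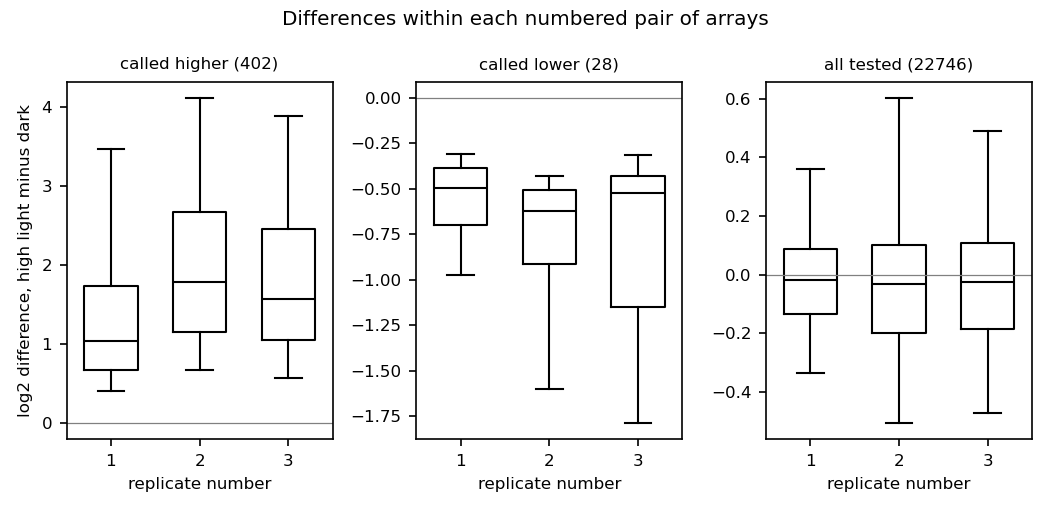
High light minus dark log2 difference within each pair of arrays of the same replicate number (x axis), for the sets called higher, those called lower and all tested sets, each panel with its own y scale. Boxes show the median and quartiles and whiskers the 5th and 95th percentiles; among sets called higher the median of pair 1 is 1.04, below 1.79 and 1.57 in pairs 2 and 3.

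The control light lay between both treatments for most of the called transcripts, and nearer to darkness. For 364 of the 402 sets called higher the control mean was between the dark and the high light mean, and the median position was 21.0% of the way from dark to high light. The median levels of these sets were 6.75 in dark, 7.18 in control and 8.63 in high light. The control mean lay beyond the dark mean in 31 sets and beyond the high light mean in 7. For 36 sets the control was at least 50% of the way. Among the 28 sets called lower, the control was between in 19 and beyond the dark mean in 9, with a median position of 11.4%. These sets were chosen for a difference between dark and high light on these arrays, which favours a control mean between them. The share of all tested sets with the control mean in between was not counted, so these counts are descriptions.

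Counted once per gene, 13355 genes had a probe set of their own, and 229 of them were called (1.71%), 216 higher and 13 lower. Of the 430 called probe sets, 190 had no gene name and 10 had several genes. Those sets are outside the gene counts, gene lists and roles given here. The named genes are the 15 with the largest increase among genes with a probe set of their own, the 13 that fell and members of gene lists. The roles given below for further called genes were assigned after the calls were seen, so the sizes of these role groups are descriptions and have no test. A role was given to 76 of the 229 genes, all of them called higher, so the direction of a role group was fixed by that choice. Uncalled genes of each kind were not counted, so no share of a role group can be set beside the 1.71% of all genes. The groups of arrays did not overlap in 74 of the 76, and 34 were called in each of the 6 fits that left out 1 dark or high light array. The largest differences of all, 5.42, 5.29 and 5.08, belonged to probe sets without a gene name and were above that of every named gene.

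Transcription factors had the largest named increase. WRKY53, a regulator of leaf senescence and defence, had levels of 5.33, 5.92 and 5.28 in dark and 9.92, 10.79 and 10.82 in high light. Every high light array lay above every dark array, by more than 3 units. The increase was 31.9-fold (log2 difference 5.0, SE 0.26, limma adjusted p = 0.000156), and the control mean of 7.13 lay 32.4% of the way from dark to high light. WRKY22, a WRKY factor of immune signalling, rose from 5.58, 4.98 and 6.07 to 6.94, 8.25 and 8.45 (difference 2.34, SE 0.38, limma adjusted p = 0.0255). Its groups did not overlap, and its call was lost without dark array 2 or 3 or high light array 2 or 3, which gave limma adjusted p up to 0.17. These were the only called members of 7 measured WRKY factors, where 1.71% of all genes were called, and the list median was 0.12.

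STZ, the zinc finger repressor also known as ZAT10, had levels of 7.10, 8.05 and 8.60 in dark and 11.21, 11.72 and 11.83 in high light. The dark and the high light arrays were ordered alike by replicate number, and the groups did not overlap. The difference was 3.67 (SE 0.15, limma adjusted p = 6.9e-05, and 0.00482 without the block). Of 3 called C2H2 zinc finger genes, STZ was the highest, and AT3G46070 rose by 1.85 (SE 0.19). STZ, WRKY53 and WRKY22 are 3 of the 4 measured genes in a list of 25 rapid stress factors, and the other one, WRKY6, differed by 0.84 (SE 0.24, limma adjusted p = 0.183). That list was drawn up with earlier results of these data known.

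The AP2/ERF family, plant factors of stress and hormone responses, had 8 called genes given this role, with differences from 0.83 to 4.04. Of these, 6 were called without the block and 3 with every array left out in turn. AT5G52020 had levels of 4.42, 4.17 and 4.43 in dark and 7.47, 8.81 and 8.87 in high light (difference 4.04, SE 0.33, limma adjusted p = 0.0013). AT1G77640 had levels of 5.70, 6.19 and 6.05 in dark and 9.63, 9.40 and 9.89 in high light (difference 3.66, SE 0.19, limma adjusted p = 0.000156). In both genes the groups were more than 3 units apart, and the control means of 4.55 and 6.41 stayed close to darkness. AT1G33760 rose by 3.54 (SE 0.30) and AT1G36060 by 2.60 (SE 0.30). The 5 AP2/ERF genes with a family symbol were a different set, and none of them was called, beside 1.71% of all genes. ORA47, a jasmonate-responsive member, differed by 0.82 (SE 0.20, limma adjusted p = 0.124).

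VQ proteins, small partners of WRKY factors, had 5 called genes with increases from 1.57 to 3.79. AT2G22880 was the highest, with levels of 6.21, 6.19 and 5.65 in dark and 9.47, 10.04 and 9.91 in high light (SE 0.21, limma adjusted p = 0.000184). AT4G20000 rose by 3.34 (SE 0.29). Of these 5 genes, 3 were called without the block and 3 with every array left out in turn. IKU1, the 1 measured member of the VQ list, differed by 0.40 (SE 0.09) and was not called (limma adjusted p = 0.0798). The lists of 10 bHLH factors and 23 bZIP factors had 0 called members, where 1.71% of all genes were called, with medians of -0.10 and 0.07, and before adjustment a p under 0.05 was reached by 1 bHLH gene, which was lower, and by 2 bZIP genes in opposite directions.

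**Figure D3:**
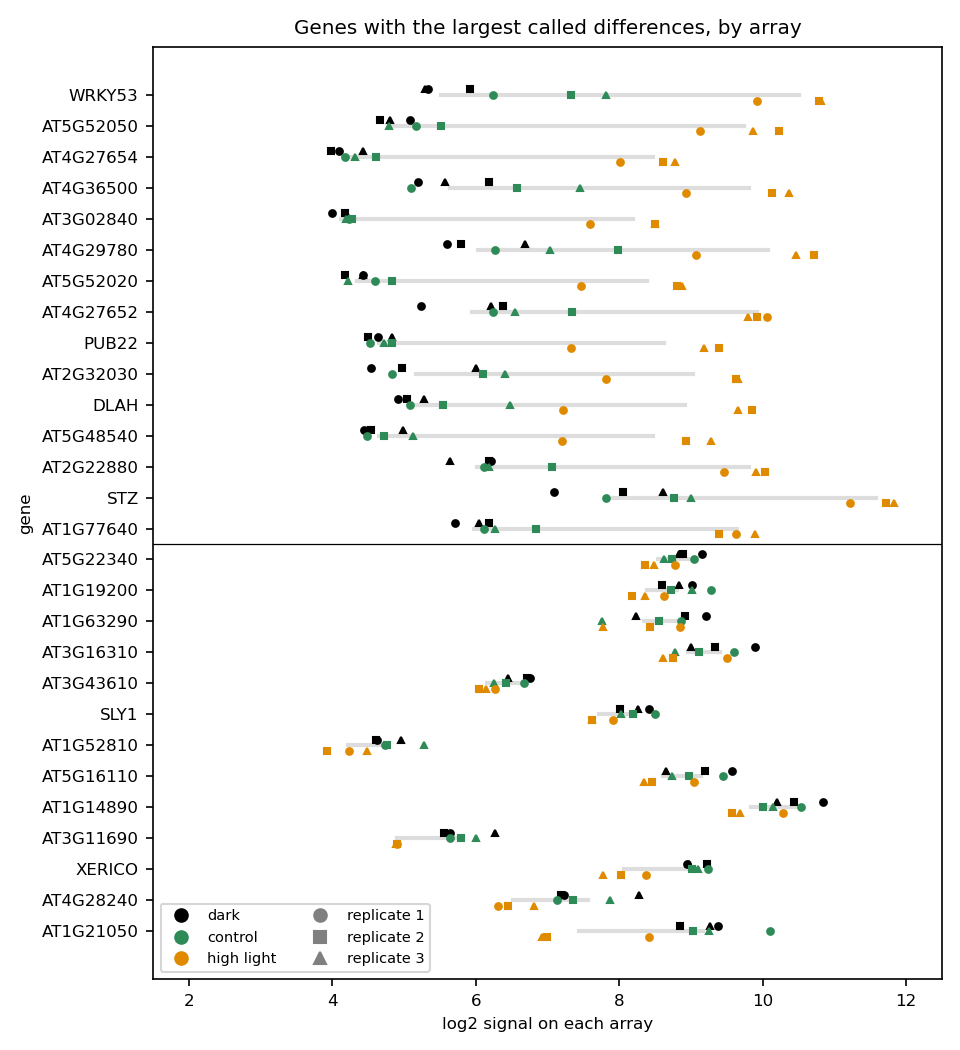
Log2 signal (x axis) of the 15 genes with the largest called increase (above the line) and the 13 genes called lower (below it). Called sets without a single gene name were not ranked. Points are single arrays, with dark in black, control in green and high light in orange and a marker shape per replicate number. Grey bars join the dark and high light means; the high light points of the upper genes stand clear of all dark points, whereas 8 of the 13 lower genes have groups that do not overlap.

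Calcium sensors bind calcium ions when the level in the cytosol rises and pass the signal to other proteins. Of 8 measured members of the list of calcium sensors and calcium-regulated kinases, 2 rose and 0 fell, where 1.71% of all genes were called. The list median was 0.34 against -0.04 for all genes. CML37, a calmodulin-like protein, had levels of 3.75, 3.75 and 4.21 in dark and 6.33, 7.86 and 7.69 in high light (difference 3.39, SE 0.31, limma adjusted p = 0.00198). Its dark values were at or near the lower quartile of the arrays, and signal over background was not tested. CML23 had levels of 6.03, 6.23 and 6.13 in dark and 8.49, 8.23 and 8.55 in high light (difference 2.30, SE 0.17, limma adjusted p = 0.000822). CML23 was as high in high light array 1 as in arrays 2 and 3.

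CML38 was not called although its mean difference was 2.58 (SE 0.65, limma adjusted p = 0.135). Its dark levels were 5.94, 6.20 and 9.51 and its high light levels 9.03, 10.17 and 10.18, so dark array 3 overlapped the high light group. Among further called genes, 5 encode EF-hand proteins of the same kind, with increases from 0.49 to 2.18. AT4G27280 was one of them, at 8.92, 9.84 and 10.59 in dark and 11.53, 12.12 and 12.25 in high light (limma adjusted p = 0.00229, and 0.0957 without the block). Of the 7 genes with this role, 5 were called without the block and 5 with every array left out in turn. The 8 measured calcium and glutamate channels and pumps had 0 called members, where 1.71% of all genes were called, and a median of -0.04.

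Protein kinases, which relay signals by phosphorylation, made up the largest role group, with 14 called genes that rose by 0.51 to 2.08. How many protein kinase genes were measured was not counted, so this is a count without a share. AT1G70740 rose most, from 5.75, 5.85 and 5.68 to 7.59, 8.08 and 7.85 (SE 0.10, limma adjusted p = 0.000121). AT5G35580 and AT3G57760 rose by 1.75 (SE 0.11) and 1.76 (SE 0.15). PTI1-4, a kinase linked to the oxidative signal pathway, rose by 0.90 (SE 0.16, limma adjusted p = 0.0378). The groups did not overlap in 13 of the 14, 6 kept their call without the block, and 4 were called with every one of the 6 arrays left out in turn. The 6 measured receptor-like kinases of the list held 0 calls, where 1.71% of all genes were called, and had a median of 0.15. Among PP2C phosphatases, which reverse such phosphorylation, AT3G62260 rose by 1.74 (SE 0.18) and AT4G28400 by 0.70 (SE 0.09). The 1 measured member of the PP2C list, PIA1, differed by 0.02 (SE 0.12, limma adjusted p = 0.971).

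Ubiquitin ligases mark proteins for breakdown, and U-box and RING ligases are separate classes of them. Of 11 listed U-box ligases, 3 rose and 0 fell, where 1.71% of all genes were called. PUB22, which with its close relatives dampens immune signalling, had levels of 4.64, 4.50 and 4.83 in dark and 7.33, 9.38 and 9.18 in high light (difference 3.98, SE 0.38, limma adjusted p = 0.00261). High light array 1 was well below the other high light arrays and still above every dark array. The control mean of 4.69 was 0.86% of the way from dark to high light. Its paralogue PUB23 had levels of 7.90, 8.42 and 7.72 in dark and 10.12, 11.28 and 11.03 in high light (difference 2.80, SE 0.19, limma adjusted p = 0.000592). The related PUB24 differed by 2.30 (SE 0.45) and missed the threshold with a limma adjusted p of 0.0561. PUB26 rose by 1.57 (SE 0.16), and 4 further called genes of the U-box type brought the role group to 7, with increases from 0.82 to 3.98. Of the 7, 5 were called without the block and 4 with every array left out in turn. PUB22 and PUB23 are similar in sequence, and cross-hybridisation between their probe sets was not tested.

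Called RING ligases lay in both directions, and the decrease in the list rests on 1 gene. Of 7 measured members of the RING and ATL list, 0 rose and 1 fell, where 1.71% of all genes were called. XERICO, a RING protein that promotes abscisic acid accumulation, had levels of 8.95, 9.22 and 8.97 in dark and 8.38, 8.03 and 7.78 in high light. All 3 high light arrays were below all dark arrays, and the control mean of 9.12 was on the far side of darkness. It fell by 0.98 on the log2 scale (SE 0.14, limma adjusted p = 0.0152, and 0.0257 without the block). Its call was kept in 2 of the 6 fits that left out an array, with limma adjusted p up to 0.122. Among the called genes outside the list, 4 RING-type genes rose by 1.26 to 2.60, of which AT1G20823 was the highest (SE 0.33, limma adjusted p = 0.0103). All 4 were called without the block and 1 with every array left out in turn.

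**Figure D4:**
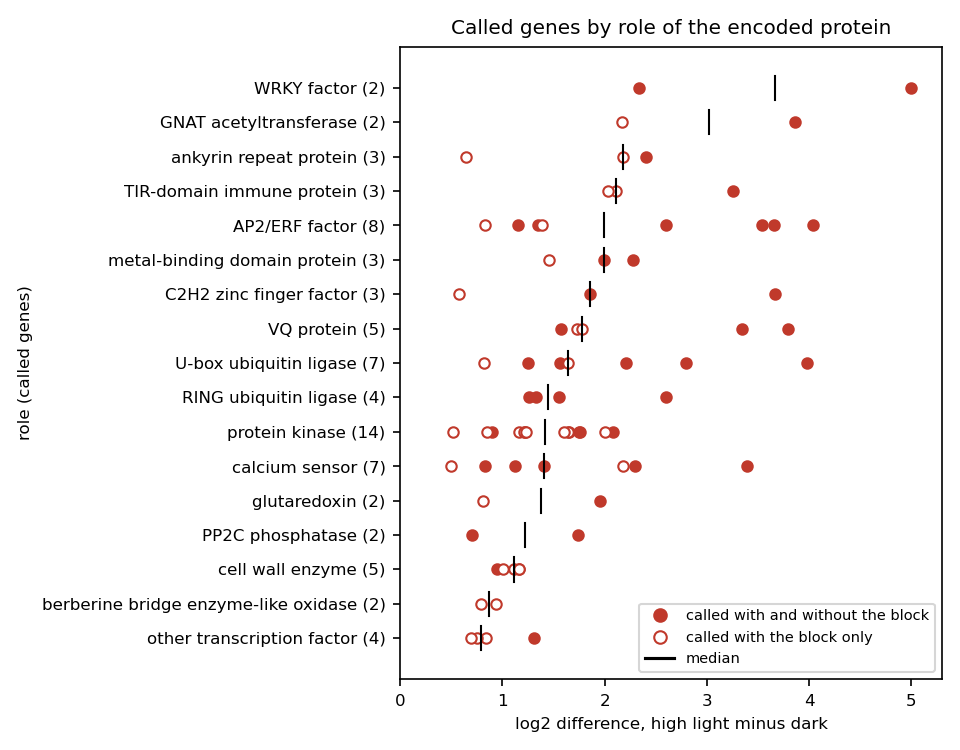
High light minus dark log2 difference (x axis) of the called genes that were given a role, with 1 row per role and the number of called genes in brackets. Filled circles were called with and without the replicate block, open circles with the block only, and black bars mark medians. The roles were assigned after the calls were seen and only to genes called higher, so the shared direction was fixed by that choice.

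Among the other named genes, AT5G52050, which encodes a MATE-family transporter, a class that carries small organic molecules across membranes, had levels of 5.08, 4.67 and 4.81 in dark and 9.13, 10.23 and 9.86 in high light. It rose 29.7-fold (difference 4.89, SE 0.27, limma adjusted p = 0.000184), with the control at 6.25% of the way. TIR-domain genes, which encode intracellular immune proteins, had 3 called members, and AT1G66090 rose most, by 3.26 (SE 0.24, limma adjusted p = 0.000859). AT1G66090 was also the 1 of the 3 called without the block and the 1 called with every array left out in turn. AT2G32140 and AT5G58120 had limma adjusted p of 0.158 and 0.0694 without the block. In the list of salicylate and defence, which holds SAG101 and 11 RALF-type peptide genes here, 0 of 12 were called, beside 1.71% of all genes. The list median was -0.01. DLAH, a lipase of the acylhydrolase family, rose by 3.83 (SE 0.45, limma adjusted p = 0.00649) and was not called without high light array 3 (limma adjusted p = 0.0664). AT5G48540, which encodes a secreted cysteine-rich protein, rose by 3.82 (SE 0.31), and AT3G02840, an ARM-repeat protein gene, by 4.07 (SE 0.18). The acetyltransferase-type gene AT2G32030 rose by 3.86 (SE 0.23). AT4G36500, AT4G29780, AT4G27652 and AT4G27654, given no role here, rose by 4.17, 4.05, 3.98 and 4.30. Of the 15 genes with the largest increase, 14 were called in each of the 6 fits that left out an array.

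Cell wall enzymes loosen or rebuild the wall. Of 59 measured members of the cell wall list, 3 rose and 0 fell, where 1.71% of all genes were called. The median of the list was 0.03. EXLA3, an expansin-like protein gene, rose from 10.44, 10.07 and 10.71 to 11.31, 11.71 and 11.68 (difference 1.16, SE 0.20, limma adjusted p = 0.0378). XTH18, a xyloglucan-remodelling enzyme gene, rose by 1.12 (SE 0.18, limma adjusted p = 0.026) and ATPMEPCRB, a pectin methylesterase gene, by 1.01 (SE 0.14, limma adjusted p = 0.0132). None of the 3 was called without the block, where the limma adjusted p was 0.0569, 0.269 and 0.187. EXO, a brassinosteroid-responsive growth gene in the list of other hormones, rose by 0.69 (SE 0.13, limma adjusted p = 0.0473) and was not called without the block either (limma adjusted p = 0.151). The jasmonate, abscisate and auxin lists, with 8, 6 and 16 measured members, held 0 called genes, beside 1.71% of all genes. At an unadjusted p under 0.05 they held 0, 1 and 1 that were higher.

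Of 17 measured antioxidant genes, 1 rose and 0 fell, where 1.71% of all genes were called, and the median was -0.09. The gene that rose was GRX480, a glutaredoxin that binds TGA transcription factors, with levels of 4.73, 4.79 and 4.87 in dark and 5.78, 7.09 and 7.39 in high light (difference 1.95, SE 0.28, limma adjusted p = 0.0164). Its dark values lay close together, and high light array 1 was the lowest of its group. Its call was lost without dark array 2 or 3 or high light array 2 or 3, with limma adjusted p up to 0.128. The thylakoid and stromal ascorbate peroxidases TAPX and SAPX, which remove hydrogen peroxide in the chloroplast, differed by 0.05 and -0.13 (SE 0.09 and 0.13). Glutathione transferases and cytochromes P450, enzymes of detoxification and specialised metabolism, had 0 called of 14 and 0 called of 24, beside 1.71% of all genes. None had an unadjusted p under 0.05. The 51 UGT glycosyltransferases held 0 called, beside the same 1.71%, and before adjustment 3 had a p under 0.05.

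Heat shock genes, often raised by strong light where it warms the tissue, showed 0 called of 7 measured, beside 1.71% of all genes. Their differences ran from -0.35 to 0.22, with none at an unadjusted p under 0.05. Hsp70-2, a cytosolic chaperone gene, had levels of 10.17, 10.10 and 10.27 in dark and 10.06, 10.24 and 10.09 in high light. The groups overlapped, with a difference of -0.05 (SE 0.19). Of 19 listed photoprotection genes raised by light, only HYH and DFR had a named probe set, and the early light-induced proteins were not analysed here. HYH, a light-signalling bZIP factor, differed by 0.14 (SE 0.07) and DFR, an anthocyanin enzyme, by 0.02 (SE 0.12), both from levels near the floor of the arrays. The 8 flavonoid and phenylpropanoid genes held 0 called, beside 1.71% of all genes, and 0 at an unadjusted p under 0.05.

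Nuclear genes for the photosynthetic apparatus had 0 called of 11 measured, beside 1.71% of all genes. Before adjustment, 1 had a p under 0.05. All 11 differences were below 0, from -0.26 to -0.04, with a median of -0.17, beside -0.04 for all genes. Brighter probe sets, with a mean above the median, had a median difference of -0.09, and no baseline matched for brightness was used. The antenna protein gene LHCB4.1 had levels of 9.93, 9.80 and 9.95 in dark and 9.61, 9.76 and 9.76 in high light (difference -0.18, SE 0.10, limma adjusted p = 0.462). The tetrapyrrole list, the pathway to chlorophyll and haem, had 0 called of 13, beside 1.71% of all genes, and a median of -0.18. HEMA2, which encodes glutamyl-tRNA reductase at the start of that pathway, differed the other way, with 7.12, 6.86 and 6.74 in dark and 7.33, 8.11 and 7.74 in high light. Its groups did not overlap, as in 4.99% of all tested sets in that direction. The difference of 0.82 (SE 0.18) missed the threshold (limma adjusted p = 0.0879).

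The plastid genome encodes the core of the photosystems and part of the gene expression machinery of the chloroplast. It had 69 genes measured and 0 called, beside 1.71% of all genes. At an unadjusted p under 0.05, 11 were higher and 5 lower, and the median was 0.12. The genes furthest above 0 included atpA, a subunit of the ATP synthase, at 0.58 (SE 0.12, limma adjusted p = 0.0714), and rps2, a ribosomal protein, at 0.46 (SE 0.09, limma adjusted p = 0.0513). The furthest below 0 were petD of the cytochrome complex at -0.69 (SE 0.15, limma adjusted p = 0.0742) and psbD of photosystem II at -0.55 (SE 0.11, limma adjusted p = 0.0623). The level of atpA was 9.74, 10.52 and 10.97 in dark and 10.16, 11.33 and 11.47 in high light, so the same-numbered arrays moved together and the groups overlapped. The labelling kit primes from poly(A) tails, which plastid transcripts mostly lack, so these signals are less direct than those of nuclear genes.

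The circadian clock list had 4 measured members, 0 called, and 3 lower at an unadjusted p under 0.05. GI, the clock and flowering regulator GIGANTEA, had levels of 7.02, 6.95 and 7.45 in dark and 6.51, 6.44 and 6.38 in high light. Its groups did not overlap, as in 5.28% of all tested sets in that direction. Its difference of -0.70 (SE 0.14) narrowly missed the threshold (limma adjusted p = 0.0556). TIC and FIO1, clock-related regulators, differed by -0.26 and -0.34 (limma adjusted p = 0.135 for both).

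In the list of energy starvation and autophagy, the recycling of cell contents in the vacuole, 1 of 23 measured members fell and 0 rose. XERICO, described above as a RING protein that promotes abscisic acid accumulation, was that member, so the call says little about starvation or autophagy. Of all genes, 1.71% were called. Of the 23 differences, 21 were below 0. The median was -0.23, beside -0.04 for all genes and -0.09 for probe sets with a mean above the median. Before adjustment, 7 had a p under 0.05, 6 of them with a difference below 0. APG8H, an autophagy gene of the ATG8 family, had levels of 10.28, 10.21 and 10.28 in dark and 10.14, 9.67 and 10.03 in high light (difference -0.31, SE 0.10, limma adjusted p = 0.236). SAG101, a lipase-like immune regulator, was the higher of the 2 members above 0, at 0.87 (SE 0.17, limma adjusted p = 0.0542). The 4 measured genes of the separate list of dark and starvation markers, 3 of which are also in the longer list, had 0 called and differences from -0.32 to -0.11. In the sugar and starch list, 0 of 25 were called, beside 1.71% of all genes. The sugar transporter gene SWEET17 came closest at -0.44 (SE 0.09, limma adjusted p = 0.0589).

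Genes of chromatin and cell division had no calls. The 7 measured histone genes and the 13 cell cycle genes held 0 called, beside 1.71% of all genes. Their medians were -0.23 and -0.19, beside -0.09 for probe sets with a mean above the median. The differences of all 7 histones were below 0, with 0 at an unadjusted p under 0.05, whereas 4 cell cycle genes were lower at that level. SIM, an inhibitor of cyclin-dependent kinases, had levels of 6.67, 6.47 and 7.40 in dark and 6.78, 5.53 and 5.52 in high light, and overlapped because of high light array 1 (difference -0.90, SE 0.32, limma adjusted p = 0.281). The homeobox gene HAT2, an auxin-responsive regulator, differed by -1.31 (SE 0.54, limma adjusted p = 0.358) and was called without high light array 1, at -2.09 (limma adjusted p = 0.0225).

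**Figure D5:**
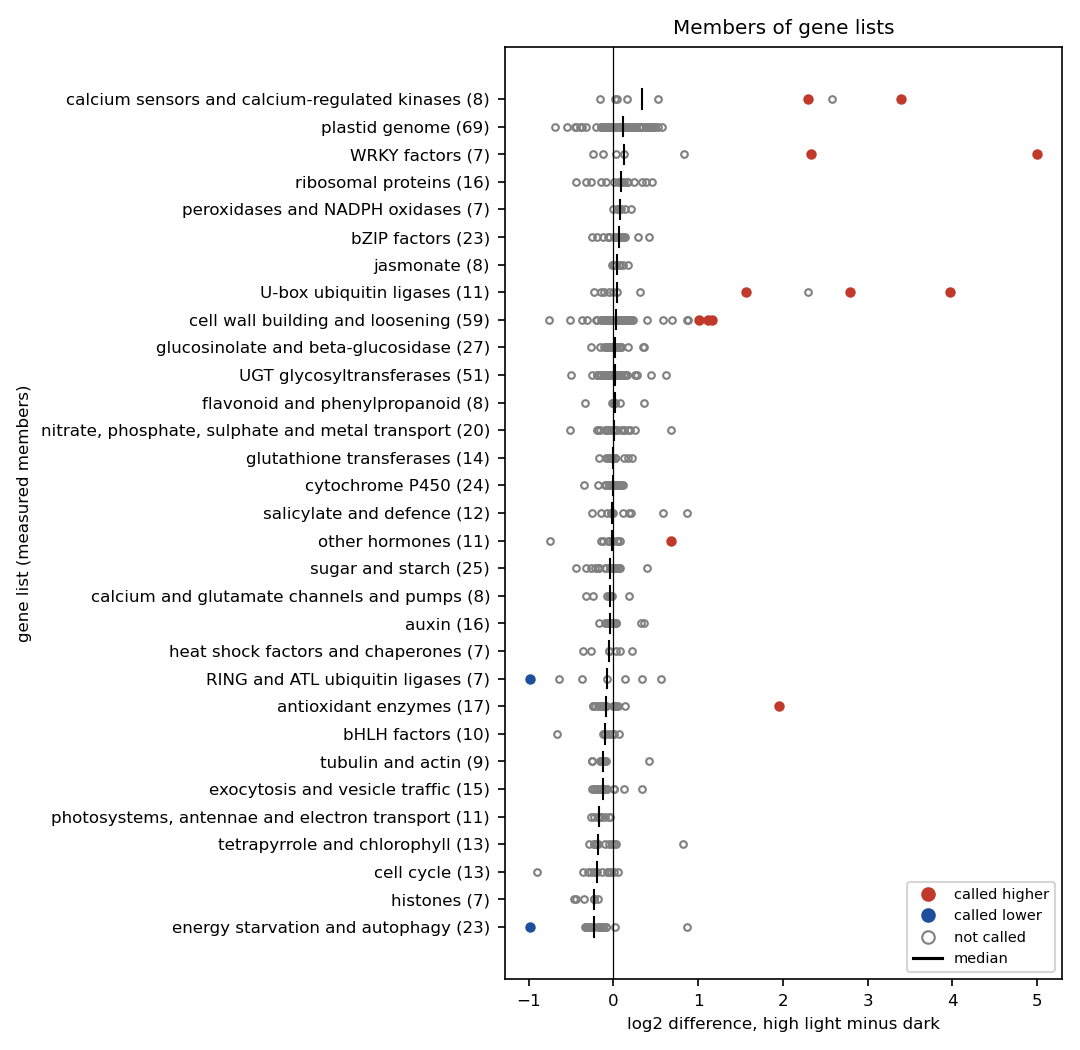
High light minus dark log2 difference (x axis) of every measured member of the gene lists with at least 7 measured genes, sorted by the list median (black bar), with the number of members in brackets. Filled red and blue circles are called members; calls above 0 lie in the regulator, calcium, ubiquitin, cell wall, hormone and antioxidant lists, while the photosynthesis, histone and starvation lists lie slightly below 0.

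Among the 13 genes that fell, AT1G21050, given no role here, had the largest decrease, with levels of 9.38, 8.85 and 9.26 in dark and 8.41, 6.99 and 6.93 in high light (difference -1.72, SE 0.22, limma adjusted p = 0.0102, and 0.157 without the block). AT4G28240, of a wound-responsive protein family, had levels of 7.23, 7.18 and 8.27 in dark and 6.31, 6.45 and 6.81 in high light (difference -1.04, SE 0.14, limma adjusted p = 0.0116, and 0.309 without the block). AT3G11690 fell from 5.64, 5.56 and 6.26 to 4.89, 4.90 and 4.89 (difference -0.92, SE 0.14, limma adjusted p = 0.0191, and 0.0595 without the block). In these 3 genes and in XERICO the groups did not overlap.

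SLY1, the F-box protein that targets the gibberellin repressors for breakdown, differed by -0.51 (SE 0.09, limma adjusted p = 0.0387, and 0.299 without the block), with 8.41, 8.02 and 8.26 in dark and 7.91, 7.62 and 7.61 in high light. AT1G14890, an inhibitor-type gene of invertases and pectin methylesterases, differed by -0.65, and AT3G43610, of the gamma-tubulin complex family, by -0.49. AT1G63290, which encodes a ribulose-phosphate epimerase, differed by -0.44. Of the 13, the groups did not overlap in 8, XERICO was the 1 still called without the block, and 0 were called in each of the 6 fits that left out an array.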

How the data were processed

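The authors deposited log2 expression per probe set. The submitters' processing notes name RMA and the affy package, with no version. RMA corrects background, normalises quantiles between arrays and summarises probes. The base of the logarithm is not stated and was inferred from the values. Quantile normalisation hides a change shared by most transcripts, and probe-level scans were not used here. The number of arrays limits the precision.

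Of 22810 probe sets, 64 Affymetrix controls were left out of the tests. A mean per group and the replicate number as a block were fitted to all 9 arrays with limma 3.58.1 in R 4.3.3 (lmFit and eBayes, 4 residual and 3.37 prior degrees of freedom), with Benjamini-Hochberg adjustment over 22746 probe sets. The comparison is defined with the block, while the labels give only a number. Deviations from the group means of same-numbered dark and high light arrays correlated at 0.414, -0.034 and 0.485, so pair 2 does not deviate together, and counts or p-values without the block are given beside the main counts and for most role groups and genes that lost their call.

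Gene names come from the platform annotation, updated through a RefSeq gene table of assembly TAIR10.1, and only sets with 1 gene were named. The array's build is not stated, so no coordinates are given. For a gene with several sets, the set with the highest mean stands for it. The naming rule takes up to 15 called genes in each direction, at most 4 called genes per list and, in a list with no call, at most 2 genes with the highest mean. Further list members and role groups were chosen after their values were seen. The members and gene lists were chosen with earlier results of these data known. The fit was tested on simulated data. Promoter sequences were not used here.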

Additional observations from a re-analysis of the deposited data

How the results depend on the processing

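Under each alternative that was run, no called gene named here changed direction. This was largely fixed in advance. Changes of threshold or block cannot alter the sign, and all 3 pairs already agreed in every called set. The count of called probe sets moved by more than 1.5 times with the arrays and the block used. Without the replicate block it was 204 (201 higher, 3 lower), and 52 of the 98 called genes that were followed (the named genes and those given a role) remained called. With only the 6 dark and high light arrays it was 198 with the block (196 higher, 2 lower, and 8 genes called in the lists, against 15 with all 9 arrays). Without the block those 6 arrays gave 131 (131 higher, 0 lower, 7 genes in the lists). At an adjusted p under 0.01, 169 were called (169 higher, 0 lower, 8 genes in the lists). The RNA quality covariate gave 43 lower sets, and asking for an absolute difference of at least 1 left 5 lower sets. Leaving out single arrays or a whole replicate number gave 118 to 862 called sets, 116 to 622 higher, 0 to 240 lower and 6 to 33 genes in the lists. The lowest counts came without replicate 3 or 2 and the highest without high light replicate 1, and the cause was not tested. All of these fits, that with the highest count included, have fewer arrays and fewer degrees of freedom than the main fit. Other scalings (medians or quantiles set equal), filters that drop dim probe sets, a robust prior that follows intensity, weighted arrays and dropping sets with shared probes gave 406 to 503 called sets. Values near the floor of the scale were not tested against background, which limits differences such as that of CML37.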

Other observations

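Several called genes lay next to each other on their chromosomes, by the order of genes in the RefSeq table. Of 5849 pairs of adjacent genes that were both measured, 9 pairs had both genes called. In such a pair were 17 of the 170 called genes with a measured neighbour, and this share was not tested. A gene can have a neighbour on each side, so the 1.71% of all measured genes that were called is not a like share. The share of all genes with a called neighbour was not counted. In 8 of the 9 pairs both genes rose. AT4G27652, AT4G27654 and AT4G27657 form a run of 3 that rose by 3.98, 4.30 and 2.28. The acetyltransferase-type genes AT2G32020 and AT2G32030 rose by 2.17 and 3.86, the RING-type genes AT2G42350 and AT2G42360 by 1.33 and 1.56, and the metal-binding domain genes AT5G52750 and AT5G52760 by 2.28 and 1.45. The exception was AT1G19200, which fell by 0.43 on the log2 scale beside the AP2/ERF gene AT1G19210, which rose by 1.15. Neighbouring genes of the same family can be similar in sequence, and cross-hybridisation between their probe sets was not tested.

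Other called genes belonged to smaller families. Ankyrin repeat genes had 3 called members, and AT4G11000 rose most, from 5.01, 4.91 and 5.13 in dark to 6.95, 7.74 and 7.57 in high light, and was the 1 of the 3 called without the block. Berberine bridge enzyme-like oxidases, which oxidise sugars and alcohols, had 2 called genes, AT4G20830 at 0.79 and AT4G20860 at 0.94, and neither was called without the block. Several lists of general cell functions held 0 called genes, beside 1.71% of all genes, and medians near that of all genes. They include 16 ribosomal protein genes (0.09), 20 genes of nutrient and metal transport (0.00), 15 genes of vesicle traffic (-0.12), 27 genes of glucosinolates and beta-glucosidases (0.02) and 9 tubulin and actin genes (-0.12). At an unadjusted p under 0.05, these lists held 2 higher and 2 lower, 1 and 2, 0 and 0, 0 and 0, and 0 and 1. The ribosomal protein list includes genes of the plastid genome, such as rpl33 and rps4, so it does not describe cytosolic ribosomes alone.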
